A study of Homo sapiens with 6 samples.

Results

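The replication-dependent histone genes of chromosome band 6p22 were examined by ATAC-seq, in which a transposase cuts open chromatin and the cut fragments are sequenced. They are the protein-coding genes of the histone cluster whose symbols start with H1-, H2AC, H2BC, H3C or H4C, and 55 of the 20037 protein-coding genes in the RefSeq table met that rule. The 55 comprised 6 H1, 12 H2A, 15 H2B, 10 H3 and 12 H4 genes. They lay between positions 25726063 (H2AC1) and 27893891 (H2BC17) of chromosome 6 in GRCh38. The cells were NCI-H1703, an established human lung squamous cell carcinoma line. Silenced cells had the long non-coding RNA DLGAP1-AS2 silenced (3 libraries) and control cells were labelled control (3 libraries). The sample titles read ASO for silenced and NC for control libraries, and the dose and time of silencing are not given in the sources used here. All 6 libraries came from 1 cell line, and no RNA was measured, so the degree of silencing is not shown by these data.

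Replication-dependent histone genes supply the core histones H2A, H2B, H3 and H4 and the linker histone H1 that package newly copied DNA. Their transcription rises in S phase under NPAT and class-specific promoter factors, and their transcripts end in a stem-loop bound by SLBP instead of a poly(A) tail. Many H2A and H2B genes are arranged head to head around a shared promoter. Many coding sequences within a core histone class are near-identical copies, and how reads that map to more than 1 copy were treated is not given in the sources used here. The part of such reads in a missing or low peak was not tested.

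The authors deposited 1 peak list per library, with 91346 to 170882 peaks on chromosomes 1 to 22, X and Y. Read depth is unknown. A relative measure, the background coverage implied by the authors' fold enrichments, was lowest in silenced replicate 3 (0.237) and 0.369 to 0.464 in the other 5 libraries. Silenced replicate 3 therefore stands apart in coverage. Control replicate 2 stands apart in its list, with the fewest peaks (91346) and the longest median peak (270 bp against 204 to 213 bp). It also had the lowest share of protein-coding genes with a peak (82.8%). Of 8 squamous marker genes, SOX2, TP63 and PKP1 had a peak in all 6 libraries. KRT5, KRT6A, KRT14, DSG3 and DSC3 had one in 1 to 4 libraries, with heights of at most 4. A germ-line list was checked because several cluster genes are testis-expressed, and 1 of its 5 genes, DAZL, had a peak in all 6. Height here means the authors' pileup value of a peak, and a gene was counted as having a peak when one overlapped its span plus 1 kb on each side. In a bulk library, more cells with an open site and more opening per cell cannot be told apart.

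Most 6p22 histone genes had a peak in every library, and a minority had none in any. A peak was found in all 6 libraries at 42 of the 55 genes, a share (76.4%) near that of all protein-coding genes (77.5%). The spans of these genes were short, with a median of 489 bp against 24115 bp for all protein-coding genes, so their windows gave fewer places for a peak. A measure of equal length was therefore added. RefSeq promoter windows, from 250 bases before to 50 after an annotated start (build GRCh38.p14), were given for 50 of the 55 genes. H4C1, H4C3, H2AC12, H3C11 and H3C12 had no entry. A peak overlapped the promoter window in all 6 libraries at 36 of the 50 (72.0%), against 55.9% of 15843 protein-coding genes. No library had a promoter peak at 9 of the 50 (18.0%), against 27.1% of the protein-coding genes. That set includes H2AC1 and H2BC1 and leaves out H3C11 and H3C12, so it differs from the 9 genes below.

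A further 9 of the 55 histone genes had no peak within 1 kb in any library. That was the case for 6.68% of protein-coding genes, whose mostly longer windows give more places for a peak. The 9 were the linker histone genes H1-1 and H1-6, the H2B gene H2BC6, the H3 genes H3C3, H3C11 and H3C12, and the H4 genes H4C7, H4C9 and H4C13. H1-6 encodes the testis-specific linker histone, and H4C7 encodes a divergent H4. The nearest peak was 2459 to 2491 bp from H1-1, 3116 to 4377 bp from H2BC6 and 5138 to 6090 bp from H4C9 across the 6 libraries. At H3C3 it was 1455 to 9367 bp away. H3C11, H4C13 and H3C12 were consecutive members of the cluster, while H1-6, H2BC6 and H4C7 each lay between genes with a peak in every library. H4C9 lies inside the longer span of H2BC12, which had a peak elsewhere in its span or margin.

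The 4 remaining genes had a peak in some libraries only, as did 15.8% of protein-coding genes. H3C8 had one in 5 libraries, with heights of 10 and 11 in the first 2 silenced libraries, no peak in silenced replicate 3, and heights of 19, 12 and 14 in the control libraries. The library without the H3C8 peak was thus the one of lowest background coverage. H2BC3 had peaks of height 2, 2 and 3 in silenced replicates 1 and 2 and control replicate 3. The authors' FDR for those H2BC3 peaks was 0.529, 0.595 and 0.0886. H2AC1 and H2BC1, a head-to-head pair encoding testis-specific H2A and H2B, had a single 200 bp peak of height 3 between them, in silenced replicate 1, with an FDR of 0.0925. Low peaks of this kind were near the smallest heights in the lists.

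**Figure D1:**
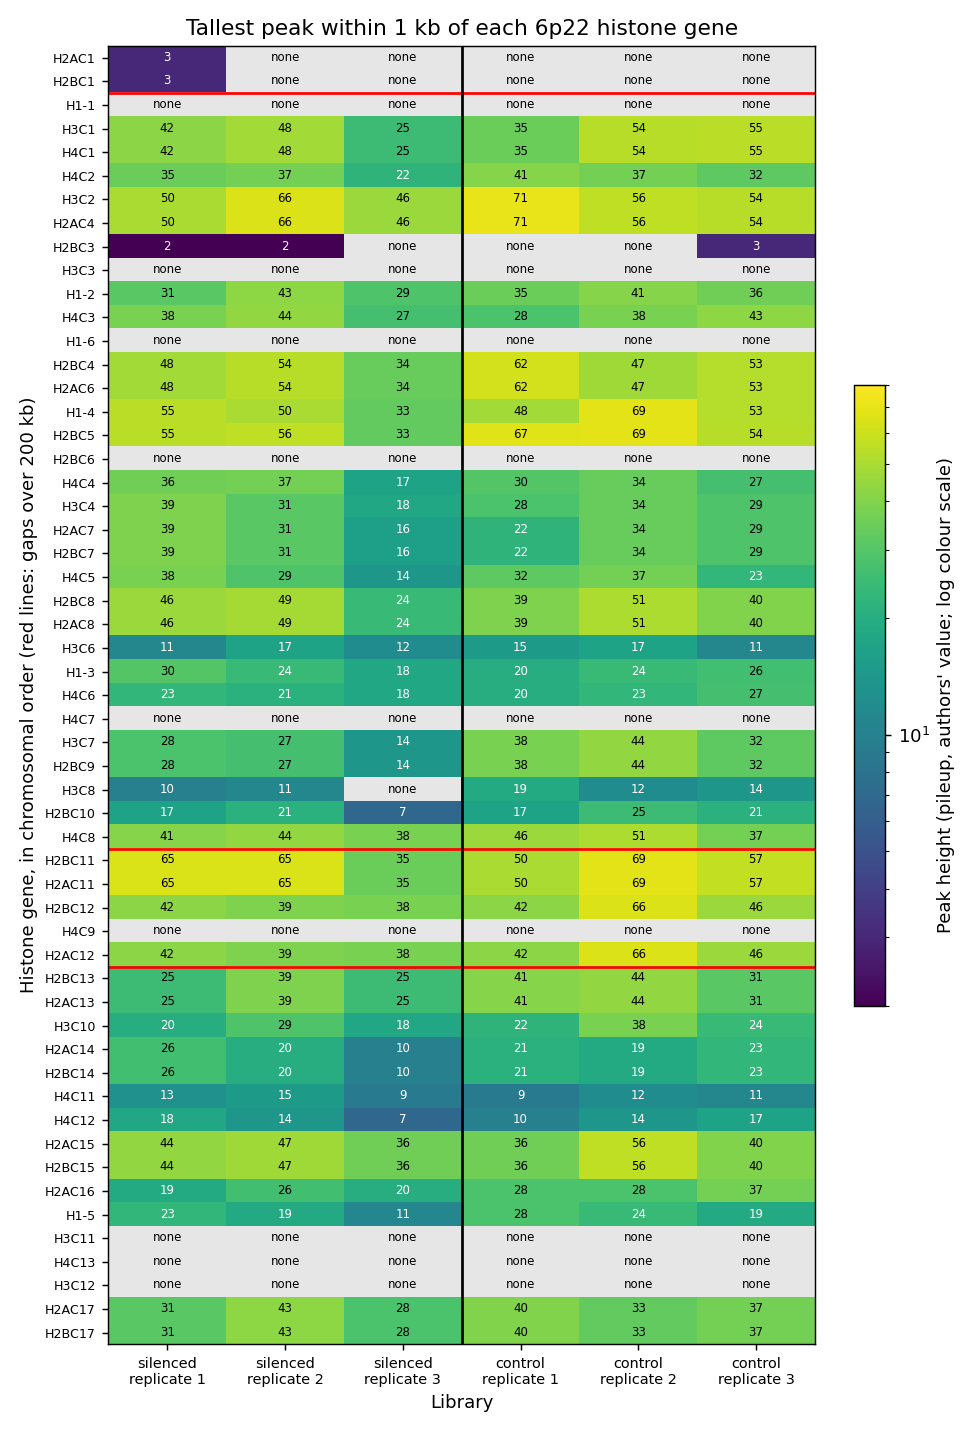
Height of the tallest peak within 1 kb of each of the 55 histone genes (rows, chromosomal order) in the 6 libraries (columns); grey cells marked none had no peak, and colour is on a log scale. The 9 genes without any peak sit among genes whose peaks reach heights of up to 71, and silenced replicate 3 has lower heights than the other libraries at most genes.

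The promoter sequences of a high-ranking gene and of a gene without a peak are shown for 4 classes, to set their motifs side by side. Each run is the 250 bases before the RefSeq start (GRCh38.p14), 5′ to 3′ on the gene's strand, with capitals marking matches on either strand to the TATA box core TATAAA, to the CCAAT box and to the octamer ATTTGCAT.

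H2BC11 had the highest mean percentile among the H2B genes and H2BC6 had no peak in any library.
H2BC11 (chr6:27132796-27133045, minus strand): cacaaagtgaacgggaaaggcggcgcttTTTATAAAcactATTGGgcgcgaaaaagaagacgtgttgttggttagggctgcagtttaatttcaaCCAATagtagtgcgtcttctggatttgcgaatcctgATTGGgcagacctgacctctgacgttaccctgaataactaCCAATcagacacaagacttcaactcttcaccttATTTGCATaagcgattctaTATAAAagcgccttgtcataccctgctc
H2BC6 (chr6:26183511-26183760, plus strand): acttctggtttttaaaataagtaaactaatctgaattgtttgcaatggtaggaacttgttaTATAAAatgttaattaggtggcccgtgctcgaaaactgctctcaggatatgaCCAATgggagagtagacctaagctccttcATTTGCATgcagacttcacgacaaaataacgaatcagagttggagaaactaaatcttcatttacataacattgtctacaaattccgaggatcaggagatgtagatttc

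For H3, H3C2 ranked highest and H3C3 had no peak.
H3C2 (chr6:26032100-26032349, minus strand): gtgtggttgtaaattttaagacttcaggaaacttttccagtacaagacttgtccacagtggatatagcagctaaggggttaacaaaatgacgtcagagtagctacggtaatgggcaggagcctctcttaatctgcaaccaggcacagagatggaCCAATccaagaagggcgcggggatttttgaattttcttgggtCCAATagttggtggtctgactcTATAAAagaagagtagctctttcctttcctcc
H3C3 (chr6:26045134-26045383, plus strand): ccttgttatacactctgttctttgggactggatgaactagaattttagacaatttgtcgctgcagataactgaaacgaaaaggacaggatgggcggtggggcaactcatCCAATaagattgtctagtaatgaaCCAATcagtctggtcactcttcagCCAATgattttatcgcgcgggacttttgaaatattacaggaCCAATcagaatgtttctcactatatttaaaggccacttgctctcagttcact

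For H4, H4C8 ranked highest and H4C13 had no peak.
H4C8 (chr6:26285535-26285784, minus strand): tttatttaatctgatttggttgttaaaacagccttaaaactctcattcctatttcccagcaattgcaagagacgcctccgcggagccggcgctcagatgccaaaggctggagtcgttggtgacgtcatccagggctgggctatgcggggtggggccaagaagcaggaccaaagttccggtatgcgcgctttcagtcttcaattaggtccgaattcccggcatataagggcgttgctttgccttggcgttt
H4C13 (chr6:27873535-27873784, minus strand): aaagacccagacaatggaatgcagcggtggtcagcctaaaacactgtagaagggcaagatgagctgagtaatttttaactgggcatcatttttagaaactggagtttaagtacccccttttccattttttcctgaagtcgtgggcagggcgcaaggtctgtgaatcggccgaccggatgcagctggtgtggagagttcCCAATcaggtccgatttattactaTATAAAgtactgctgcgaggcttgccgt

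For the linker histones, H1-4 ranked highest through a peak at the start of its neighbour H2BC5, with a peak over its own promoter window in 5 libraries, and H1-1 had no peak.
H1-4 (chr6:26156079-26156328, plus strand): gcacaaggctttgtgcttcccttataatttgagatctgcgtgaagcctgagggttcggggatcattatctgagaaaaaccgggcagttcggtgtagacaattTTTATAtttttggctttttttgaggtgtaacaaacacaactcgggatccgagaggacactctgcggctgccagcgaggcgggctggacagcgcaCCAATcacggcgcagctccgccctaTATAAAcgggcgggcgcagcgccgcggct
H1-1 (chr6:26017788-26018037, minus strand): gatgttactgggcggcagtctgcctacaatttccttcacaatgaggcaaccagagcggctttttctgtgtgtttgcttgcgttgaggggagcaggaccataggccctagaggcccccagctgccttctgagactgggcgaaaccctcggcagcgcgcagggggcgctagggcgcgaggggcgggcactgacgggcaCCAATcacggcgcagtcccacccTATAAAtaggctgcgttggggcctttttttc

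Motif content differed between histone classes. TATAAA, the core of the TATA box that positions transcription initiation, was in 36 of the 54 promoter windows of these genes (66.7%), against 9.0% of all 22199 protein-coding windows. On the gene strand it began a median of 31 bases before the start. CCAAT, the box bound by NF-Y, was in 47 of the 54 windows (87.0%) against 32.7% of all windows. It was in every H1, H2A, H2B and H3 window but in 3 of 10 H4 windows. ATTTGCAT, the octamer bound by OCT-1 (POU2F1) and known from H2B promoters, was in 23 of 54 windows against 1.59% of all. The octamer was in 13 of 17 H2B and 9 of 11 H2A windows, 1 of 10 H3 windows, and in no H1 or H4 window. Windows of a head-to-head pair overlap, so 1 octamer can count for an H2A and an H2B gene, and the H3 match was in a start of H3C4 that coincides with that of H2AC7. The E2F-type sequence TTTGGCGC was in no window of these genes and in 0.68% of all windows.

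Windows without a peak held these motifs too. Of the 10 windows with no peak in any library, 6 held TATAAA, 9 held CCAAT and 3 held ATTTGCAT. Of the 39 windows with a peak in all 6, the counts were 26, 35 and 19. In the sequences above, H1-1 and H1-4 each carry a CCAAT box that begins 54 bases before the start and TATAAA that begins 31 and 29 bases before it. H2BC6 has an octamer, but it begins 108 bases before the start, against 47 in H2BC11. H4C8, which had a tall peak in every library, holds none of the motifs searched. A match or its absence describes these letters only.

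Among genes with a peak in all 6 libraries (15529), each gene's tallest peak was ranked by height within each library, and the rank was expressed as a percentile, with 100 the tallest. The 42 ranked histone genes had mean percentiles from 15.7 (H4C11) to 76.5 (H2AC4 and H3C2), with a median of 54.7 against 49.7 over all ranked genes. In 12 pairs of these genes the tallest peak was the same interval in all 6 libraries, and it counts for both genes in the 54.7. A median with each shared peak counted once was not taken, so histone peaks are not shown to rank above those of all genes. None had a mean percentile of 90 or more, which 9.3% of all ranked genes had. Median percentiles were 62.4 for 11 H2A genes, 59.1 for 12 H2B genes, 47.3 for 4 H1 genes, 47.3 for 6 H3 genes and 47.6 for 9 H4 genes. The classes overlapped widely, from 25.9 to 76.3 in H2B and from 15.7 to 64.2 in H4. Of the pairs, 9 joined an H2A with an H2B gene, so their peaks count in both classes. H2AC4, H3C1, H3C7 and H1-4 were ranked by a taller peak away from their own start. Median heights over a gene's own start gave another class order, among genes with a start peak in all 6 libraries. They were 38.5 for H2B, 35 for H2A, 30.5 for H4, 26.75 for H3 and 24 for H1. Percentiles over longer windows favour longer genes, since the tallest of more peaks is taken.

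**Figure D2:**
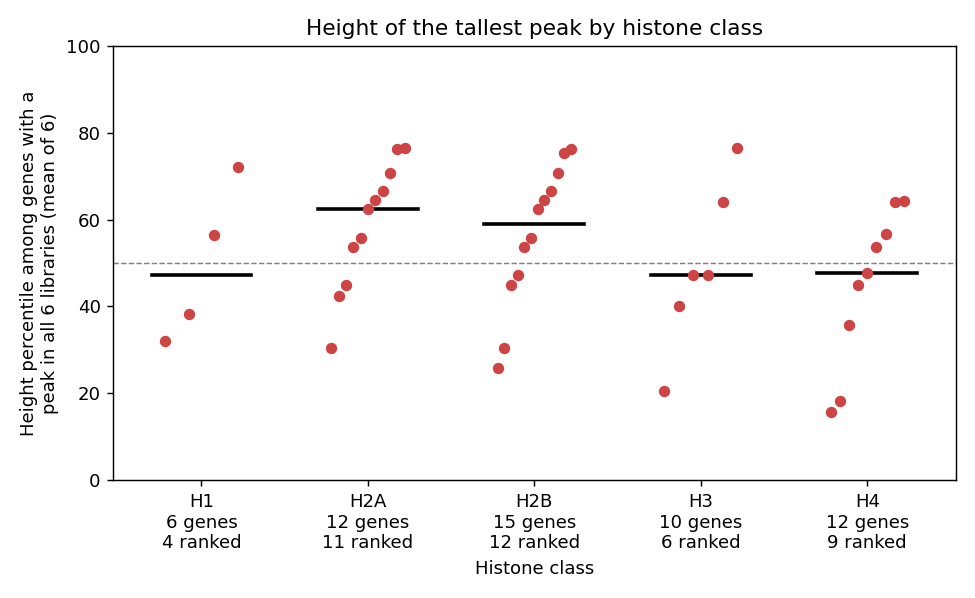
Mean height percentile over the 6 libraries for each histone gene with a peak in all 6 (points), by class; black bars are class medians and the dashed line marks the 50th percentile. H2A and H2B medians (62.4 and 59.1) sit above the line and those of H1, H3 and H4 just below it. A tallest peak shared by a pair gives a point for each gene.

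The core histone genes were compact and shared their peaks. Of the 42 genes, 24 formed 12 pairs whose tallest peak was the same interval in all 6 libraries, so that the 42 genes fell into 30 single genes or pairs. Some of these shared a tallest peak in part of the libraries, as H1-4 and H2BC5 did. An H2A gene and an H2B gene made up 9 of the 12 pairs, and the others were H3C1 with H4C1, H3C2 with H2AC4, and H3C7 with H2BC9. The divergent H2BC11 and H2AC11 pair shared a peak with heights of 65, 65 and 35 in silenced libraries (replicate order) and 50, 69 and 57 in control libraries. That peak covered positions 27132282 to 27133303 in silenced replicate 1, spanning the H2BC11 gene and the region between the starts. H3C2 had heights of 50, 66 and 46 in silenced and 71, 56 and 54 in control libraries, in the peak over its own start. H2AC4, within 1 kb of that peak, had a lower one over its own start, with heights of 29, 24 and 19 in silenced and 30, 40 and 36 in control libraries.

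At the other end of the range were 3 low core histone genes of separate classes. H2BC10 had heights of 17, 21 and 7 in silenced and 17, 25 and 21 in control libraries. H3C6 had heights of 11, 17 and 12 in silenced and 15, 17 and 11 in control libraries. The H2AC14 and H2BC14 pair had a shared peak with heights of 26, 20 and 10 in silenced and 21, 19 and 23 in control libraries. The silenced and control values overlapped at each of these genes. Among the H4 genes, whose products are nearly all identical, H4C8 had heights of 41, 44 and 38 in silenced and 46, 51 and 37 in control libraries. H4C11 had only 13, 15 and 9 in silenced and 9, 12 and 11 in control libraries. H4C9 and H4C13 had no peak at all, so this class ran from no peak to a mean percentile of 64.2 at H4C8. That was below the highest in each of the other classes (72.0 to 76.5). The 72.0 belongs to H1-4, through a peak at the start of its neighbour H2BC5. Heights over a gene's own start put H1 and H4 in the other order. Among genes with a start peak in all 6 libraries, the highest median start height was 42.5 in H4 and 33 in H1. It was 55 in H3 and 61 in both H2A and H2B.

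The 6 linker histone genes were either open in every library or without a peak in any. H1-2 had heights of 31, 43 and 29 in silenced and 35, 41 and 36 in control libraries. H1-3 had heights of 30, 24 and 18 in silenced and 20, 24 and 26 in control libraries. The 20 of control replicate 1 came from a peak centred past the 3′ end of H1-3, and over its start that library had 16. H1-5 had heights of 23, 19 and 11 in silenced and 28, 24 and 19 in control libraries. The tallest-peak heights of the 2 groups overlapped at each of them. At H1-2 the tallest peak lay toward the 3′ end in some libraries, and over its start the heights were 31, 30 and 16 in silenced and 35, 41 and 36 in control libraries. These start heights did not overlap between groups, but the 36 of control replicate 3 came from 1 interval of 1656 bp that covered the whole gene. Heights are not scaled between libraries, and these were not tested. The share of all genes whose start heights do not overlap was not counted. H1-4 reached 55, 50 and 33 in silenced and 48, 69 and 53 in control libraries, but that tallest peak lay past its 3′ end, next to the start of H2BC5. Over the start of H1-4 itself the heights were 28, 25, 27, 33 and 29 in the other 5 libraries, and silenced replicate 3 had no peak there. H1-1 and H1-6 made up the 2 linker genes without a peak.

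A total of 4 stretches separated by over 200 kb made up the cluster. The first holds H2AC1 and H2BC1 and had no gene with a peak in every library. The second, from H1-1 to H4C8 (26017032 to 26285534), holds 32 genes, of which 25 had a peak in all 6 libraries, with a median percentile of 56.4. The third, from H2BC11 to H2AC12 (27132316 to 27147562), holds 5 genes, of which 4 had one, with a median of 71.4. The fourth, from H2BC13 to H2BC17 (27807479 to 27893891), holds 16 genes, of which 13 had one, with a median of 42.5. Of the other 26 protein-coding genes on this part of chromosome 6, 19 had a peak in all 6 libraries, with a median percentile of 45.2.

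Peaks at these genes centred on the start and ran into the coding sequence. For the 45 histone genes with a known strand and a span of at most 1 kb, 74.8% had a peak over the start (mean of 6 libraries, range 71.1% to 77.8%), against 56.2% for 15843 protein-coding genes. At 300 bp into the gene the shares were 53.0% and 26.8%. They converged at 500 bp (15.9% and 15.4%), close to where these genes end. A second rise followed, to 21.5% at 900 bp against 6.69% for all genes; neighbouring histone genes also lie within that distance, and their part in it was not tested. Of 31 such genes with a start peak in all 6 libraries, 5 also had a separate peak centred within 1 kb past their 3′ end in all 6, a share (16.1%) close to that of all protein-coding genes up to 1 kb long (18.6% of 59). H1-3 was 1 of these 5 and had no other histone gene within 2 kb. Its second peak had heights of 14 to 20, centred 999.5 bp (median) from the start. At 300 bp the lowest library of the 6 was at 26.7% and the highest at 60.0%.

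**Figure D3:**
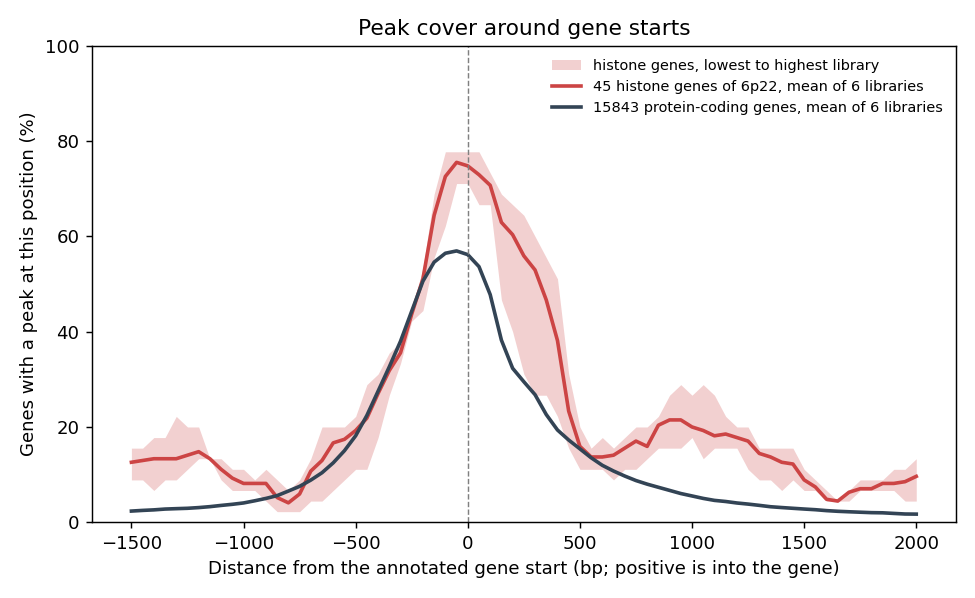
Share of genes with a peak at each distance from the annotated start, for 45 histone genes of 6p22 (red line, mean of 6 libraries; band, lowest to highest library) and 15843 protein-coding genes (dark line). The red line is higher at the start (74.8% against 56.2%), meets the dark line near 500 bp and rises again to 21.5% at 900 bp.

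Silencing of DLGAP1-AS2 was compared with control by the number of histone genes with a peak. Silenced libraries had 46, 44 and 42 such genes, and control libraries had 43, 43 and 44. On average this was 44 ± 2 (SD, n = 3) against 43.3 ± 0.577 (SD, n = 3), and the gap of 0.667 was smaller than the silenced SD. Without silenced replicate 3 the gap was 1.67. Over all protein-coding genes, 86.0% ± 1.93 (SD, n = 3) and 85.8% ± 2.61 (SD, n = 3) had a peak. With peaks over promoter windows the counts were 39.0 ± 1.0 (SD, n = 3) and 39.7 ± 1.15 (SD, n = 3) of 50 genes. No histone gene was called in all 3 libraries of 1 group and none of the other. Among all protein-coding genes the share was 0.125% for silenced-only and 0.0948% for control-only peaks. The joined windows of these genes were covered by peaks over 20.2% ± 3.08 (SD, n = 3) of their length after silencing and 22.3% ± 0.467 (SD, n = 3) in controls. The difference of -2.05 percentage points was -0.283 without silenced replicate 3, in which 16.7% was covered.

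Height ranks were compared with limma on normal scores of the ranks, fitted over all 15529 ranked genes with Benjamini-Hochberg adjustment. None of the 42 histone genes differed between silenced and control cells at an adjusted p under 0.05 (limma; smallest adjusted p = 0.965), and 0.0% of all ranked genes did. At an unadjusted p under 0.05 there were 738 genes (4.75%) in the whole table, 2.11% higher and 2.64% lower in silenced cells, and 0 of these 42. Score differences (silenced minus control) ran from -0.328 to 0.386, with a median of 0.11 against 0.0049 over all ranked genes. The difference was above 0 for 29 of 42 genes (69.0%) and for 50.9% of all ranked genes. Ranking by fold enrichment gave 36 of 42 above 0 (85.7%, against 51.7% of all), and centred log2 heights gave 34 of 42 (81.0%, against 57.0% of all). In the main ranking by height, the direction rested on silenced replicate 3. Without that library the median was -0.0090 and 20 of the 43 genes then ranked were above 0. The fits on fold enrichment and log2 heights were not rerun without it. The median percentile of the 42 genes was highest in silenced replicate 3, at 66.5. It was 58.0 and 52.3 in the other silenced libraries and 53.9, 55.7 and 53.6 in the controls.

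The lowest score difference belonged to the shared peak of H3C7 and H2BC9, an H3 and an H2B gene, at -0.328 ± 0.159 (SE; limma adjusted p = 0.965). Its heights were 28, 27 and 14 in silenced and 38, 44 and 32 in control libraries, and its percentiles were 44.2, 36.4 and 41.7 against 56.5, 57.4 and 47.3. The 2 groups did not overlap at this peak, which overlaps H2BC9 and lies outside H3C7. Over the start of H3C7 itself the heights were 27, 22 and 13 in silenced and 25, 28 and 23 in control libraries. H3C7 had a difference of 0.0304 when only its span was used. H2BC10 came next, at -0.162 ± 0.178 (SE; limma adjusted p = 0.965), with the groups overlapping. It was -0.0512 without silenced replicate 3 and -0.0976 without control replicate 2. H3C7 and H2BC9 were the 2 of 42 genes whose percentiles were lower in every silenced than in every control library, against 4.91% of all ranked genes.

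The highest score difference was that of H4C11, at 0.386 ± 0.188 (SE; limma adjusted p = 0.965). Its percentiles were 18.2, 17.9 and 24.8 in silenced and 9.1, 11.9 and 12.5 in control libraries, which did not overlap. The tallest H4C11 peak was not the same interval in each library, and its heights were only 9 to 15. The peak over the H4C11 start was 7 high in silenced replicate 1, missing in silenced replicate 2 and 9 high in silenced replicate 3, against 9, 7 and 11 in control libraries. These start heights were not higher in silenced cells. H1-3 followed at 0.297 ± 0.178 (SE; limma adjusted p = 0.965), with percentiles of 47.3, 31.9 and 52.7 in silenced and 28.7, 30.9 and 38.3 in control libraries. The H1-3 difference was 0.181 without silenced replicate 3 and 0.451 without silenced replicate 2. In control replicate 1 the ranked H1-3 peak was the one centred past its 3′ end. H4C3 had a difference of 0.282 ± 0.171 (SE; limma adjusted p = 0.965), and its heights were 38, 44 and 27 in silenced and 28, 38 and 43 in control libraries. The H4C3 difference was 0.166 without silenced replicate 3 and likewise 0.166 without control replicate 1. H1-3 and H4C3 had overlapping groups. H4C4, singled out after its values were seen, also had higher percentiles in every silenced library. With H4C11 it made 2 of 42 genes, against 5.18% of all ranked genes.

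**Figure D4:**
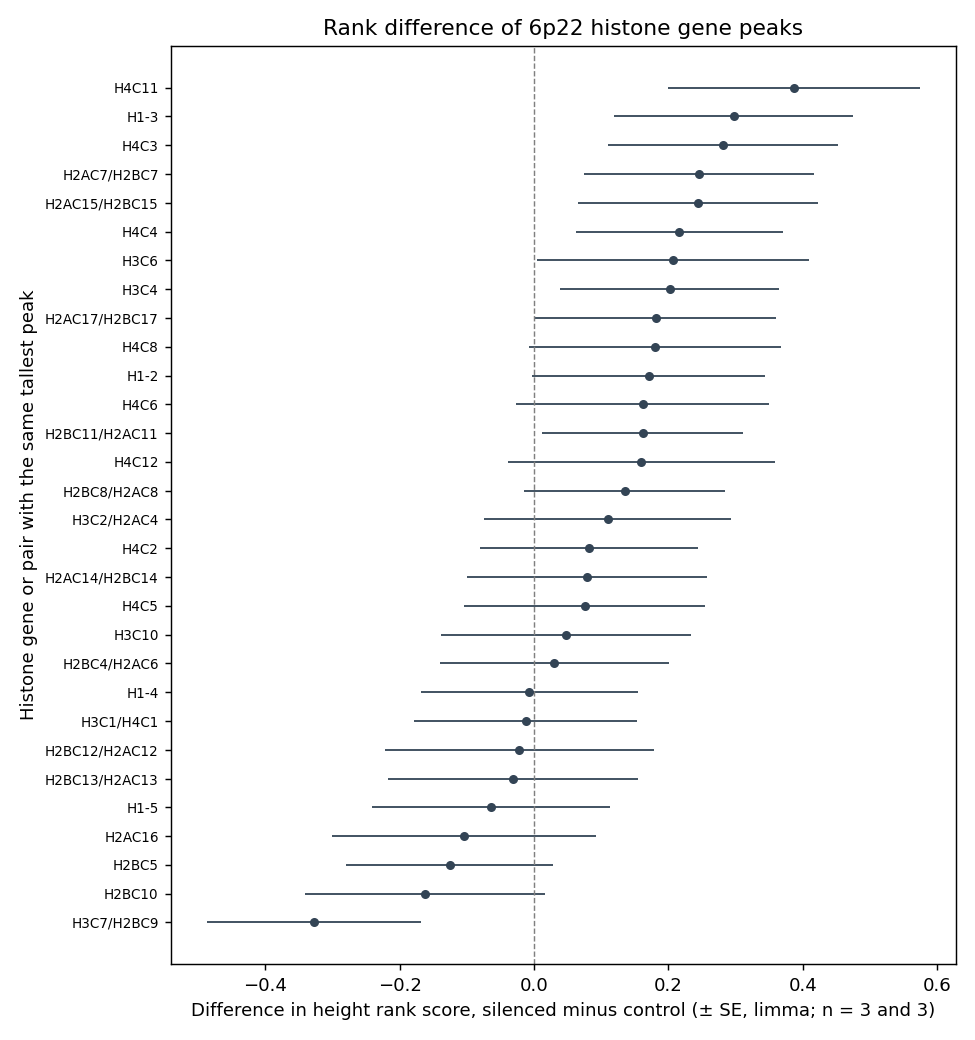
Difference in height rank score, silenced minus control, for the 30 single genes or pairs with the same tallest peak among the 42 ranked histone genes (points; bars, SE from limma, 3 libraries per group). Values run from -0.328 (H3C7 and H2BC9) to 0.386 (H4C11), and no gene has an adjusted p under 0.05.

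Genes that act with the cluster were examined with lists of their own. All 24 transcription and mRNA processing factors, among them NPAT, the cluster's co-activator, and SLBP, the stem-loop binding protein, had a peak in all 6 libraries. None had an adjusted p under 0.05 (limma), and their median percentile was 77.3. The lowest unadjusted p in that list was 0.043, for CPSF3, the endonuclease that cleaves histone pre-mRNA (score difference 0.318, limma adjusted p = 0.965). CPSF3 was 1 of 24 with an unadjusted p under 0.05 (limma), against 4.75% of all ranked genes. All 15 histone chaperone genes had a peak in all 6 libraries, with a median percentile of 71.6 and no adjusted p under 0.05 (limma). NASP, a chaperone of H3 and H4 (and of linker histones), had the lowest unadjusted p there, 0.025 (score difference 0.352, limma adjusted p = 0.965). It was 1 of 15 with an unadjusted p under 0.05 (limma). Of 12 replication-independent variant genes, 11 had a peak in all 6 libraries, with a median percentile of 81.3, and H3-5 had one in 1 library.

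Replication-dependent histone genes outside 6p22 were a second small set. Of 15 such genes, 10 had a peak in all 6 libraries, with a median percentile of 82.6 against 54.7 for those on 6p22. Their percentiles ran from 6.72 to 87.0. The 10 genes had 6 distinct sets of tallest-peak heights, and with each set counted once the median percentile was 68.9. No such median was taken for 6p22, where 54.7 counts a shared peak for each gene, so 68.9 and 54.7 are in unlike units. H2BC21, H2AC20 and H2AC21 had the same heights in every library, as did H2BC18 with H3C13 and H2AC25 with H2BC26. For the first 3 genes they were 72, 82 and 58 in silenced and 77, 80 and 78 in control libraries. H4C14, H3C14, H3C15 and H2BC12L had no peak in any library, and H2AC18 had one in 3. None of the 10 ranked genes had an adjusted p under 0.05 (limma), and score differences ran from -0.147 to 0.0921.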

How the data were processed

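ATAC-seq peak lists of 6 NCI-H1703 libraries (3 silenced, 3 control) were used, 1 per library and not pooled. Trimmomatic 0.36, Bowtie2 2.2.6, Picard 2.8.2, MACS2 2.1.1, bedtools 2.25.0 and build GRCh38 are named in the submitters' processing notes, with no role or order. Per the file headers, each deposited peak has a pileup signal (height), a fold enrichment ratio, a p-value and an FDR, an adjusted p-value, all the authors' values. These are not scaled between libraries, so heights were described within a list and compared only as ranks over the same genes.

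Gene spans came from RefSeq (GRCh38.p14), and promoter sequences from the same build. Normal scores of height ranks were tested with limma 3.58.1 (R 4.3.3; lmFit and eBayes with trend), adjusted by Benjamini-Hochberg over 15529 genes at 0.05, and the procedure was tested on simulated data. Values over the listed genes were described without a p. The labels do not say that libraries came from separate cultures, so p-values measure the spread between these libraries.

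Named genes were every H1 gene, genes with a peak in some or no libraries, the highest and lowest of each core class, the 3 largest score differences in each direction, and genes called in 1 group only. In the other lists, the gene with the lowest p and genes without a peak in all 6 libraries were eligible, and blood, endothelial, adenocarcinoma and neighbouring genes are given as counts. The genes and lists were chosen with earlier results of these data known. Alternatives were an FDR of at most 1e-05, a height of at least 4, equal list sizes, other windows, fold enrichment, centred log2 heights, merged regions, leaving out each library and a replicate block.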

Additional observations from a re-analysis of the deposited data

How the results depend on the processing

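Under the 16 alternatives run for the rank test, 0 histone genes had an adjusted p under 0.05 (limma), and 0 to 3 had an unadjusted p under 0.05. The 3 were of 42 without control replicate 3, where 509 of all 15586 ranked genes had such a p (limma). Without silenced replicate 2 it was 1 of 42, against 1205 of 15586. The difference in histone genes with a peak (silenced minus control) was 0.667, was -2.33 once peaks above an FDR of 1e-05 were dropped, and ran from -0.333 to 1.67 when each library was left out. Histone genes with a peak in all 6 libraries numbered 35 to 49 of 55 under the filters and windows, and the count over all protein-coding genes moved likewise. At an FDR of at most 1e-05 there were 35 histone genes and 11918 of 20037 protein-coding genes. With the gene span plus 5 kb there were 49 and 16661. The score difference of H3C7 reversed from -0.328 to 0.0304 with the gene span alone and to 0.0204 with peak midpoints in the window, since both drop the neighbouring H2BC9 peak. Over all protein-coding genes, leaving out 1 library gave 0 to 1 called genes: JOSD1 without silenced replicate 1, RNF125 without silenced replicate 2 and ANTXRL without control replicate 3, named after their values were seen. The median score difference over the histone genes ran from -0.0090 to 0.164 in those fits. With a replicate block, 0 genes were called, the median stayed 0.11 and the difference in genes with a peak 0.667; same-numbered libraries did not deviate together (mean correlation -0.0089 over 3 pairs, across genes). Depth in reads is unknown, so a missing peak is not shown to be closed chromatin.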

Other observations

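The accessible histone promoters differed in base composition from other accessible promoters. The median GC content of the 250 bases before the start was 41.2% in the 39 histone promoter windows with a peak in all 6 libraries. It was 65.6% in the 10540 protein-coding windows with a peak in all 6, of which 1.13% had a GC content of 41.2% or less. The CpG count had a median of 7 in the former and 22 in the latter. Among all 4700 protein-coding windows with a GC content under 50%, 13.1% had a peak in all 6 libraries, and among the 50 such histone windows 74.0% did. TATAAA went with fewer peaks over all protein-coding genes, since 22.9% of 1999 windows with it had a peak in all 6 libraries against 49.9% of 20200 without it. In the histone windows the shares were 72.2% of 36 and 72.2% of 18. These are descriptions with no test, and windows of head-to-head pairs overlap.

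Of 4 blood cell markers 3 had a peak in all 6 libraries, as did both endothelial markers and the 4 adenocarcinoma and alveolar markers, with median percentiles of 24.9, 18.1 and 12.9. Percentiles of the adenocarcinoma and alveolar markers ran from 9.31 to 46.4. The 3 of 8 squamous markers with a peak in all 6 had a median of 27.9, from 7.33 to 39.4. The 2 measures went opposite ways. Fewer of the squamous markers had a peak in all 6 libraries (3 of 8, against 4 of 4 adenocarcinoma and alveolar markers). Those that did had a higher median percentile (27.9 against 12.9), with overlapping ranges. Of the other 26 protein-coding genes on this part of chromosome 6, 6 had a peak in some libraries only and 1 in none.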
